A study of Drosophila melanogaster with 2 samples.

Results

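The proteasome is the protease complex that degrades ubiquitin-tagged proteins. Its core particle is a barrel of alpha subunits, which gate the entry, and beta subunits, some of which carry the proteolytic sites. The regulatory particle caps the barrel: Rpt subunits form a ring of ATPases that unfolds substrates, and Rpn subunits hold and remove ubiquitin. The general complex is essential in dividing cells. Drosophila also carries paralogues, marked T or R in their symbols, several of which are known from the male germ line.

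Here 48 proteasome subunit genes were examined out of 13945 protein-coding genes on 6 chromosome arms. Membership went by symbol alone, as the genes whose annotated name begins with Prosalpha, Prosbeta, Rpn or Rpt, with a number after the last 2. This rule was set with earlier results of these data known. Symbols ending in T or R, with or without a number, were set apart as 16 paralogues. That left 32 general subunit genes, of which 14 encode the core particle and 18 the regulatory particle.

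Binding was measured by chromatin immunoprecipitation and sequencing in whole, mixed-sex embryos of Drosophila melanogaster aged 6 to 16 hours. The embryos came from a transgenic line that makes the DM-domain transcription factor Dmrt99B with eGFP at its C-terminal end. The labels describe an antibody to GFP but enter dmrt99B as the antibody, and do not state what drives the transgene. Both samples, biological replicates 3 and 4, form 1 group with nothing to set it against, so no test between groups could be made. In whole embryos, weak binding in many cells and strong binding in few cannot be told apart. The peak lists hold no read counts, and the depth is unknown.

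The authors deposited a list of 7838 peaks past a threshold on the irreproducible discovery rate (the IDR list), a relaxed list of 30000 peaks from the pooled replicates, and a relaxed list of 30000 peaks for each replicate. Each peak carries a summit and a signal value, which is the authors' score on a scale that is not stated. The score ranks peaks within a list and is not compared between lists. Bound here means that at least 1 annotated transcription start site (TSS) of the gene had an IDR summit no more than 1000 bp away.

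The proteasome genes with a summit at a start site were counted first. Of the 48 genes, 5 were bound (10.4%, 95% Wilson interval 4.53% to 22.2%), against 20.1% of all protein-coding genes. The bound genes were Rpn3, Rpn11, Rpn13, Prosbeta2 and Prosalpha4. All of them belong to the general complex, where 5 of 32 genes (15.6%, Wilson interval 6.86% to 31.8%) were bound. None of the 16 paralogues was bound (Wilson interval 0% to 19.4%). The intervals cover counting error over genes only and describe how few genes stand behind each share. No test was made, since genes of a list are not replicates.

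Among the general subunits, both particles had bound genes. The core particle had 2 of 14 genes bound (14.3%), with 1 of 7 alpha and 1 of 7 beta genes. The regulatory particle had 3 of 18 genes bound (16.7%), all of them among the 12 Rpn genes, while 0 of 6 Rpt genes were bound. In the 7838 strongest peaks of replicate 4 alone, 5 of 18 regulatory (27.8%) and 2 of 14 core genes (14.3%) had a summit, against 22.2% of all genes. In those of replicate 3 alone it was 4 regulatory (22.2%) and 3 core genes (21.4%), against 20.5% of all genes. With the relaxed pooled list it was 5 regulatory genes (27.8%) and 2 core genes (14.3%), against 34.0% of all genes. The difference between the particles was not tested. By the same rule, 20 of 73 mitochondrial ribosomal protein genes (27.4%, interval 18.5% to 38.6%) and 54 of 92 cytoplasmic ones (58.7%, interval 48.5% to 68.2%) were bound. The differences between these groups were not tested.

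**Figure D1:**
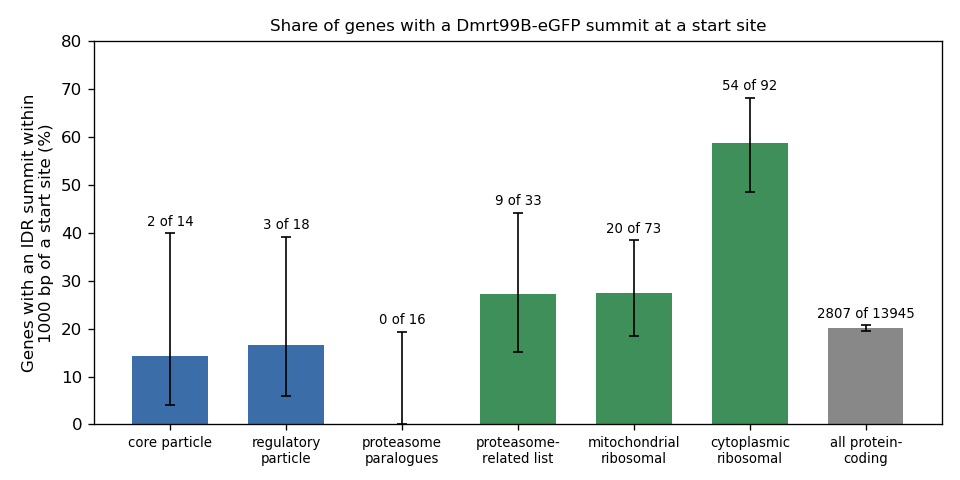
Percent of genes with an IDR summit within 1000 bp of a start site (vertical axis) in 7 groups of genes (horizontal axis), with the count of genes above each bar and 95% Wilson intervals as error bars. The core (2 of 14) and regulatory (3 of 18) particle genes have shares below that of all protein-coding genes (2807 of 13945) and wide intervals, and the paralogues are at 0 of 16.

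Sequences are shown first for 4 of the bound genes. At Rpn3, Prosbeta2 and Prosalpha4, summits lie at or near the short stretch that separates the gene from the start of another gene. Of the IDR summits at these 4 genes, those 4 bp (Rpn3), 131 bp (Rpn11) and 196 bp (Prosbeta2) upstream fall inside the printed bases, and the others outside. The stretches come from the release 6 (dm6) reference and are written along the strand of the proteasome gene, ending at the base before its most upstream TSS. Those of Rpn3, Prosbeta2 and Prosalpha4 are the whole stretch between their TSS and the nearest TSS of the opposite gene. For Rpn11, whose nearest opposite start lies 1025 bp away, the last 300 bases are given. The stretch of Rpn13 is not printed. Capitals mark the DNA replication-related element (DRE), TATCGATA, a core promoter sequence known to be bound by the factor DREF. No stretch overlapped an annotated UTR.
Rpn3 (chr2L:19051613-19051789, plus strand): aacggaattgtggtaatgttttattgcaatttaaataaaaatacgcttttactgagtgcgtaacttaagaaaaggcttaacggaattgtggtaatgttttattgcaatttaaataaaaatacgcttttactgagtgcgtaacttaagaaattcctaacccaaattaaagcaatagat
Rpn11 (chr2L:5059791-5060090, minus strand): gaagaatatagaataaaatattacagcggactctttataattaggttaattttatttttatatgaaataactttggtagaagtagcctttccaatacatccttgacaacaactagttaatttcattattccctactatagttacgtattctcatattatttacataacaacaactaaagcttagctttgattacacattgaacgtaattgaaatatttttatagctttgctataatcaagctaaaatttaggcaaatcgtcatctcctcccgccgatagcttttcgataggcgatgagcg
Prosbeta2 (chr3L:14999667-14999950, plus strand): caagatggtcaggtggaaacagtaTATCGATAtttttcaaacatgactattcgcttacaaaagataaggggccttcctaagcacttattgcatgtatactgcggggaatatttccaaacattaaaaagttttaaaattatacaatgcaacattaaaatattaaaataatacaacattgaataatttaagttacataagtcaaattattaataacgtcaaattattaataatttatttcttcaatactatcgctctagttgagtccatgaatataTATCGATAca
Prosalpha4 (chrX:16276181-16276269, plus strand): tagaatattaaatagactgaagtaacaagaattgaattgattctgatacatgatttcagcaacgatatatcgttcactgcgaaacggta

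The strongest proteasome summit lay at Rpn3 (FBgn0261396), which encodes a subunit of the lid of the regulatory particle. Its peak spans 19051696 to 19051924 on 2L, and its summit is 4 bp upstream of the most upstream TSS. The signal value was 732 in the pooled data, rank 1605. In the replicate lists the summit lay 4 bp upstream in replicate 3 (signal value 503, rank 1695) and 24 bp upstream in replicate 4 (226, rank 1508), so the rank was similar in both. The start site of l(2)37Bb, on the opposite strand, lay 178 bp upstream. The stretch of 177 bases between the starts has a GC content of 28.8% and holds an exact direct repeat of 72 bases, with copies that begin 177 and 99 bases before the Rpn3 TSS. How the authors placed reads from such copies is not given in the sources used here.

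Rpn11 (FBgn0028694) encodes the metalloprotease that removes ubiquitin chains from substrates at the entry of the core. It had IDR summits 131 and 340 bp upstream of its only TSS, with signal values of 508 (rank 2513) and 194 (rank 6924). The stronger of these recurred in replicate 3 at the same base (376, rank 2450) and in replicate 4 at 119 bp upstream (138, rank 2782). The weaker one recurred as well, 338 bp upstream in replicate 3 (161, rank 6162) and 318 bp upstream in replicate 4 (54.0, rank 7588). The nearest start on the opposite strand was that of qtc at 1025 bp, and another IDR summit of higher signal value (1014, rank 1003) lay 1486 bp upstream of Rpn11 and nearest to qtc. Both DRE matches upstream of Rpn11 lay 413 and 397 bases before its TSS, outside the printed stretch.

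Prosbeta2 (FBgn0023174) encodes the beta subunit with trypsin-like activity. It also had a pair of IDR summits. The nearer one was weak, 7 bp downstream of the TSS with a signal value of 206 (rank 6545). It was found in both replicates but unequally, at rank 5795 in replicate 3 (4 bp upstream, signal value 172) and at rank 23678 in replicate 4 (30 bp downstream, 17.6). The stronger summit was 196 bp upstream (529, rank 2387) and recurred at rank 2359 in replicate 3 and rank 2676 in replicate 4. It lay 89 bp from the TSS of mRpL39, a mitochondrial ribosomal protein gene whose TSS is 285 bp from that of Prosbeta2. The DRE matches began 260 and 10 bases before the Prosbeta2 TSS, 1 near each end of the stretch between the starts.

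Prosalpha4 (FBgn0004066) encodes a subunit of the alpha ring. Its only IDR summit lay 241 bp upstream (signal value 255, rank 5305), and recurred 254 bp upstream in replicate 3 (173, rank 5768) and 243 bp upstream in replicate 4 (83.6, rank 4838). This summit falls outside the 89 bases between the starts. It was nearer to a start of kat80, which encodes a subunit of the microtubule-severing enzyme katanin, at 112 bp. The summit nearest to Prosalpha4, 37 bp upstream, was in the relaxed pooled list only (89.2, rank 14074). When a summit was counted only for the gene with the nearest TSS, Prosalpha4 was no longer bound and the other 4 genes still were.

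Rpn13 encodes a ubiquitin receptor of the regulatory particle. Its summit lay 21 bp upstream of the most upstream of its 3 TSSs (360, rank 3699), at the same base in replicate 3 (226, rank 4337) and 45 bp upstream in replicate 4 (135, rank 2853). The opposite gene, CtsL1, which encodes a cathepsin protease, starts 271 bp away. A DRE match began 217 bases before the Rpn13 TSS. Rpn13 lies on 2R from 13958545 to 13960404 (FBgn0033886).

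**Figure D2:**
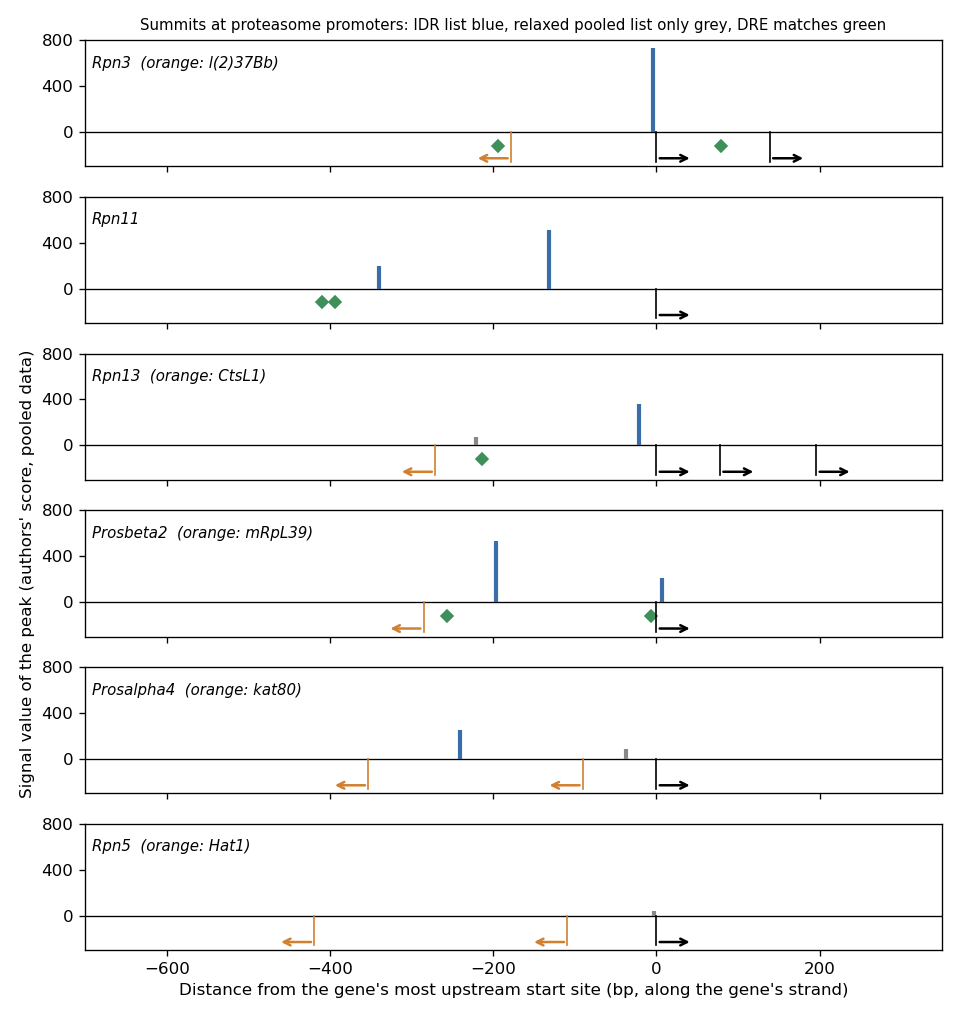
Signal value of each summit (vertical axis, the authors' score in the pooled data) against its distance from the gene's most upstream start site (horizontal axis, bp along the gene's strand) for 6 proteasome genes. Blue bars are IDR summits, grey bars are summits of the relaxed pooled list only, green diamonds are DRE matches, black arrows are starts of the gene and orange arrows starts of the named neighbour. The IDR summits lie between 340 bp upstream and 7 bp downstream of the start, and those of Rpn3 and Rpn13 are 4 and 21 bp from it.

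All 5 summits nearest to a bound proteasome gene also lay within 1000 bp of the start of another protein-coding gene, at distances between 112 bp (kat80) and 894 bp (qtc). Among all 2807 bound protein-coding genes this held for 46.9%. By position these summits belong to both genes, and binding for the proteasome gene and for its neighbour cannot be told apart. In signal value the 5 nearest summits ranged from 206 to 732 with a median of 360, within the range of all bound genes, whose median was 427 with quartiles of 247 and 875. Their distance from the TSS was between 4 and 241 bp, and 4 of 5 lay upstream. Of all bound genes, 65.3% had their nearest summit within 300 bp and 79.9% had it upstream.

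Head-to-head neighbours were common among proteasome genes whether bound or not. Of the 32 general subunit genes, 22 (68.8%) had an opposite-strand start of another protein-coding gene within 1000 bp upstream, against 36.2% of all genes. Of these 22 genes 4 were bound (18.2%), against 26.0% of all genes with such a neighbour. Of the 10 without one, 1 was bound, Rpn11, against 16.8% of all genes without one. Rpt5, Rpt4, Rpt2 and Prosbeta5, whose neighbours start 42, 58, 81 and 94 bp away, had no summit in any list within 1000 bp. Only 4 of the 16 paralogues had a head-to-head neighbour. The number of start sites also moved with the share bound. Of the 36 proteasome genes with 1 annotated TSS 3 were bound (8.33%), against 13.8% of all such genes. Genes with 1 TSS made up 36 of 48 proteasome genes and 73.5% of all genes. The part of neighbours and start sites in the count of bound genes was not tested.

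Beyond the IDR list, summits at a further 6 general genes were low in rank or uneven between the replicates. With the relaxed pooled list 7 of 48 genes had a summit within 1000 bp, against 34.0% of all genes, and the 2 added were Rpn5 and Rpn9, which encode further lid subunits. Rpn9 had its summit 138 bp downstream of its most upstream TSS (94.4, rank 13403). Its summits in replicate 3 (79.1, rank 12147) and replicate 4 (27.9, rank 14826) were similarly low in rank. Rpn5 differed between replicates. In replicate 4 a summit 213 bp upstream reached rank 2129 (signal value 173), whereas in replicate 3 the only summit was 3 bp upstream at rank 19677 (47.5). In the pooled list the only Rpn5 summit was also 3 bp upstream, at rank 26762 (43.7). The opposite gene Hat1 starts 109 bp from Rpn5.

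The list of replicate 3 placed a summit within 1000 bp of 9 proteasome genes, against 34.8% of all genes, and that of replicate 4 of 10, against 38.8%. The genes added by these lists were Prosalpha5, Rpn12, Rpn2 and Rpn7. Prosalpha5, of the alpha ring, had summits in both replicates, 22 bp upstream in replicate 3 (55.0, rank 17164) and 24 bp upstream in replicate 4 (23.5, rank 17633), but none within 1000 bp in the pooled list. It also had a summit 922 bp upstream in replicate 3 (136, rank 7285). Rpn12 of the lid had a summit in replicate 3 alone, 154 bp upstream (133, rank 7428). Rpn2, a large scaffold subunit of the base, had summits in replicate 4 alone, the strongest 174 bp upstream (65.4, rank 6203), and Rpn7 of the lid 1 summit in replicate 4 alone, 157 bp upstream (38.2, rank 10806). The other 21 general genes and all 16 paralogues had no summit within 1000 bp in any of the 4 lists.

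**Figure D3:**
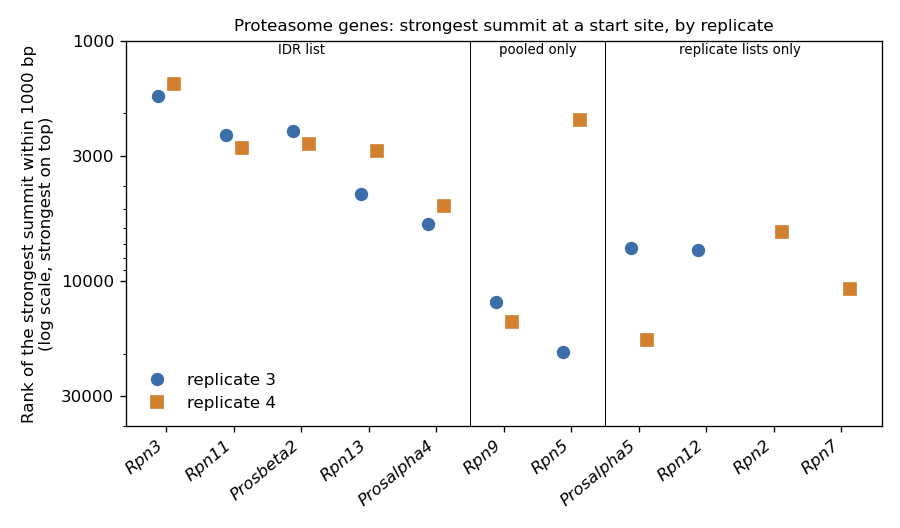
Rank, within the list of each replicate, of the strongest summit within 1000 bp of a start site (vertical axis, log scale, strongest on top) for the 11 proteasome genes with such a summit in any list (horizontal axis). Circles are replicate 3 and squares replicate 4, with no symbol where a list has no summit there. The 5 genes of the IDR list lie between ranks 1508 and 5768 in both replicates, and Rpn5 at rank 19677 in replicate 3 and rank 2129 in replicate 4.

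Most proteasome genes lay kilobases from the nearest IDR summit. Just outside the limit of 1000 bp was Prosbeta6 at 1126 bp, beyond the 3′ end of the gene, then Rpn12 at 1524 bp and Rpn9 at 1758 bp, while the farthest gene inside was Prosalpha4 at 241 bp. The 27 general genes that were not bound had a median distance of 8092 bp and reached 25790 bp at Prosbeta3. The general subunits as a whole had a median of 5141 bp, against 7351 bp for all genes. The median was 7259 bp for the core and 4800 bp for the regulatory particle. The 6 Rpt genes ranged from 2862 bp (Rpt2) to 17738 bp (Rpt4). Rpt5 lay 5298 bp from one of the strongest peaks of the series (signal value 3147, rank 113), which was found at Hrd3. The catalytic subunit genes Prosbeta1 (caspase-like activity, 22283 bp) and Prosbeta5 (chymotrypsin-like activity, 11575 bp) were far from any IDR summit, unlike Prosbeta2. Of the 48 genes, 1 (Prosbeta2, 2.08%) had an IDR summit between its start and end, against 14.8% of all genes. The proteasome genes are shorter, with a median length of 1382 bp against 2166 bp for all genes.

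The paralogues were the farthest from IDR summits. Their median distance was 15198 bp, from 3396 bp at Prosbeta2R2 to 44974 bp at Rpt4R, and 12 of 16 lay over 10000 bp away. Of the 16, 14 were farther from a summit than the general gene they are named after. Prosalpha4T1 and Prosalpha4T2 lay 29635 and 37165 bp away, against 241 bp for Prosalpha4. Prosbeta2R1 and Prosbeta2R2 lay 22255 and 3396 bp away, against 7 bp for Prosbeta2. Rpn13R lay 12098 bp away, against 21 bp for Rpn13. The exceptions were Prosalpha6T (16034 bp, against 20295 bp for Prosalpha6) and Rpt3R (15146 bp, against 16755 bp for Rpt3). Neighbouring members share a nearest summit: Prosalpha1 and Prosalpha1R have the same one, as do Prosbeta4R1 and Prosbeta4R2, so the 48 genes refer to 46 summits.

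**Figure D4:**
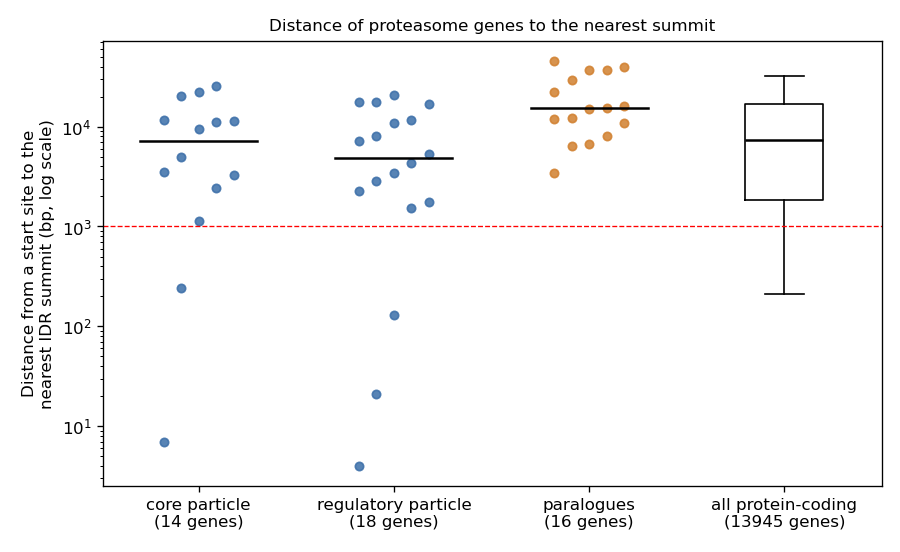
Distance from a start site to the nearest IDR summit (vertical axis, bp, log scale) for core particle, regulatory particle and paralogue genes, 1 point per gene with the median as a black line, and for all protein-coding genes as a box (median and quartiles, whiskers at the 10th and 90th percentiles). The dashed line is the limit of 1000 bp. Of the points below it, 2 are core and 3 regulatory particle genes, and the paralogues start at 3396 bp.

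The promoters were then searched for 8 short sequences on both strands, in a window from 250 bases before to 50 bases from the most upstream TSS on. The DRE was the most frequent of them in general subunit promoters: 12 of 32 (37.5%) held TATCGATA, against 9.36% of all promoters and 0 of 16 paralogue promoters. Bound and unbound genes both carried it. Of the 12 genes with a DRE in this window 3 were bound (Rpn3, Rpn13 and Prosbeta2), against 21.2% of all genes with one. To set bound beside unbound genes, the sites of 8 of the 12 genes follow, each with 10 bases to either side along the strand of the gene and the DRE in capitals, from the dm6 reference. The sites of the other 4 genes are not printed here: they began 217 bases before the TSS in Rpn13 (bound), 95 in Prosalpha3, 20 in Prosalpha5 and 121 in Prosbeta1 (not bound). The bound genes come first, and the DRE stands in both sets at varied distances from the TSS. Not bound refers to the IDR list and does not mean free of summits. Prosalpha5, Rpn7, Rpn9 and Rpn12 had a summit within 1000 bp in at least 1 relaxed list. At Prosalpha5 these included summits 22 bp upstream in replicate 3 and 24 bp upstream in replicate 4.
Rpn3 (bound, 197 bases before the TSS, chr2L:19051583-19051610): gttatcggagTATCGATAtcgaaaaggc
Prosbeta2 (bound, 10 bases before the TSS, chr3L:14999931-14999958): catgaatataTATCGATAcaatatcgat
Prosalpha6 (not bound, 16 bases before the TSS, chr2L:10221325-10221352): ccgaatccctTATCGATAcccgatacac
Rpn12 (not bound, 216 bases before the TSS, chr3L:16582802-16582829): tgttaaaataTATCGATAttaaagcaca
Prosbeta6 (not bound, 44 bases before the TSS, chr3L:16610445-16610472): tatgtataccTATCGATAacgtttaagc
Rpt5 (not bound, 46 bases before the TSS, chr3R:23752820-23752847): tcgctgtcacTATCGATAagcgccggcg
Rpn7 (not bound, 3 bases after the TSS, chr3R:22462034-22462061): cggtataattTATCGATAattttggggt
Rpn9 (not bound, 26 bases after the TSS, chr3R:23733419-23733446): cccggttaaaTATCGATAttctcgcgga

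The other sequences were found at fewer proteasome promoters. Motif 1 (GGTCACACT), a core promoter sequence bound by M1BP, was in 5 of 32 general promoters (15.6%), against 6.05% of all promoters. The antioxidant response type element TGACNNNGC, known as a target of the Cap'n'collar factor with small Maf proteins, was also in 5 of 32, against 8.63%. None of those 5 genes was bound, against 21.0% of all genes with the element, and with 5 genes little can be read from that count. The DM core ACAATGT, the sequence type known for DM-domain proteins, was in 2 of 32 general promoters (6.25%), against 4.62% of all promoters, and in 3 of 16 paralogue promoters. The sequence CAGTGTA, searched because it is frequent in windows around these summits, was in 2 of 32, against 2.86%. Neither of these last sequences was found in the promoter window of a bound proteasome gene. Just outside the window, a CAGTGTA match began 59 bases after the TSS of Rpn3, which is bound. GAGAG was in 3 of 32 general promoters (9.38%) and 6 of 16 paralogue promoters, against 29.7% of all promoters, and TATAAAAG was in none, against 5.69%. CACGTG was likewise in none, against 4.20% of all promoters. The reverse complement of motif 1 shares the letters TGAC with the antioxidant response type element. Of the 5 general promoters with that element, 4 also held motif 1, and the matches overlapped in Rpn1 and Prosbeta3. A match is a description of the reference, not a measured site. The median GC content was 33.5% in general subunit promoters and 32.7% in paralogue promoters, against 38.0% in all promoters. Its part in the shares was not tested.

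**Figure D5:**
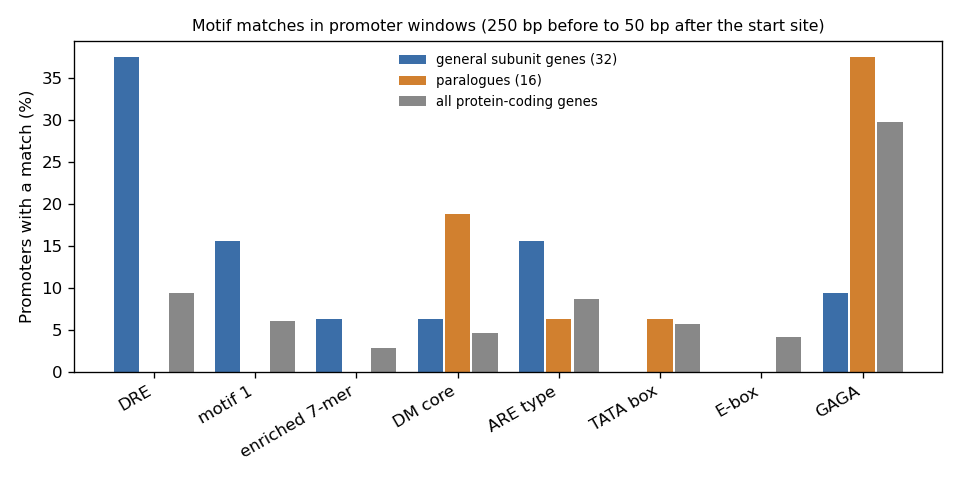
Percent of promoter windows with a match on either strand (vertical axis) for 8 short sequences (horizontal axis) in general subunit genes, paralogues and all protein-coding genes. The enriched 7-mer is CAGTGTA, the ARE type TGACNNNGC, the TATA box TATAAAAG, the E-box CACGTG and GAGA the letters GAGAG. The DRE is in 12 of 32 general subunit promoters and in no paralogue promoter, and the share of all promoters is 9.36%.

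In windows of 201 bases centred on the 5 nearest summits the DM core was absent. The DRE was in 2 of these windows, against 1.33% of all 7838 IDR windows. They were those of Prosbeta2, at the printed site, and Rpn3, at a site that began 76 bases after the TSS. The printed Rpn3 site lay 189 bp from the summit, outside the window. The 5 windows were taken at start sites, whereas the 7838 were not limited to them. CAGTGTA was in 1 of the 5 windows, that of Rpn3, against 8.42%, and the DM core was in 3.99% of all windows. With 5 windows these are counts only.

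Genes that work with the proteasome were described from a separate list of 33, of which 9 were bound (27.3%, Wilson interval 15.1% to 44.2%), against 20.1% of all genes. Among regulators, 3 of 5 were bound. They were cnc, which encodes the Cap'n'collar factor (signal value 261, 70 bp upstream of 1 of its 10 TSSs), Keap1, which encodes its inhibitor (2393, rank 202, 888 bp upstream), and Pngl, which encodes a peptide N-glycanase (288, 170 bp upstream). The summit nearest to a cnc TSS was 40 bp away in replicate 3 (157) and 35 bp away in replicate 4 (14.4). The latter is near the low end of its list, where 14.2 stood at rank 28923. Replicate values of the other related genes are not given here. In assembly and activation, Pomp, which encodes a chaperone of core assembly (1138, rank 840, 248 bp upstream), and PI31, a proteasome-binding regulator (187, 352 bp upstream), were bound out of 5 genes. Hrd3, part of a ubiquitin ligase of the endoplasmic reticulum (3147, rank 113, 157 bp upstream), and SkpA, a subunit of cullin ligases (1858, 967 bp upstream), were bound out of 9 ligase genes. The polyubiquitin gene Ubi-p63E (462, 94 bp downstream) and eff, which encodes a ubiquitin-conjugating enzyme (245, 125 bp upstream), were bound out of 6 genes of ubiquitin and its conjugation. None of the 6 delivery factor genes and neither of the proteasome-associated deubiquitinase genes was bound. Of the 9 bound genes, 6 had a head-to-head neighbour, among them Hrd3 (PTPMT1, 51 bp), SkpA (Hmt4-20, 81 bp) and Keap1 (kuk, 299 bp). When a summit was counted only for the gene with the nearest TSS, 7 of the 33 were bound (21.2%), against 16.1% of all genes. Of the 17 listed genes with 1 TSS, 2 were bound (11.8%), against 13.8% of all genes with 1 TSS.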

How the data were processed

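ChIP-seq peaks of Dmrt99B-eGFP from 2 biological replicates (numbered 3 and 4 in the labels) of 6 to 16 hour embryos were used as deposited. Per the labels, chromatin was sonicated to a size range of 200 to 800. A listing that the authors supplied states dm6 for every list. By that listing the relaxed lists were made from alignments plus 1 further file, and the IDR peaks from the relaxed lists. No source used here names an aligner or peak caller. The signal value is a score deposited by the authors. The deposited −log10 q column has many ties and was not used.

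Summits were compared with TSSs of Ensembl release 115 and the release 6 reference in Python 3.11.15 with pandas 2.3.3, numpy 2.4.6 and scipy 1.17.1, and plotted with matplotlib 3.10.9. No peak lay beyond an arm. The assignment and motif steps were tested on simulated data. All genes of the list were accounted for, and those with an IDR summit, and listed related genes with one, are named with values. The members, gene lists and motifs were chosen with earlier results of these data known. One listed related gene was matched through a RefSeq synonym. Alternatives were stricter and relaxed peak sets, each replicate alone, other distances, peak intervals, protein-coding transcripts and the nearest gene only. No test between genes was made.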

Additional observations from a re-analysis of the deposited data

How the results depend on the processing

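The count of 5 bound proteasome genes was between 4 and 7 under the alternatives listed, except with a distance of 2000 bp, where it was 8 (Prosbeta6, Rpn9 and Rpn12 added), and among genes with 1 TSS only, an alternative chosen after seeing the data, where it was 3. It was 7 with each replicate left out in turn, and the 5 genes were bound both times. The core particle count of 2 was 1 in the 3919 strongest IDR peaks and 1 when a summit counted only for the gene with the nearest TSS, and ranged from 2 to 3 with a replicate left out. The regulatory particle count of 3 was 5 with the relaxed pooled list, 5 at 2000 bp and 1 among genes with 1 TSS, and ranged from 4 to 5 with a replicate left out. The paralogue count was 0 under all 10 alternatives. The related list ranged from 6 to 13, except for 2 among genes with 1 TSS. The share of all protein-coding genes, 20.1%, moved to 13.2% in the strongest peaks, 34.0% with the pooled list, 16.1% at 500 bp, 26.0% at 2000 bp, 21.2% with peak intervals, 16.1% with the nearest gene only and 13.8% for genes with 1 TSS, and ranged from 20.5% to 22.2% with a replicate left out. The causes were not tested. The general subunit promoters with a DRE numbered 17 with the 7 letters ATCGATA (18.2% of all promoters), 14 in a window of 500 bases before to 100 after the TSS (11.6%) and 8 in one of 100 before to 50 after (7.63%), all chosen after seeing the data. No paired analysis was possible because the series holds 1 group. Depth is unknown, so the lack of a peak is not evidence that a promoter was free of the protein.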

Other observations

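Of the 7 proteasome genes with a summit within 1000 bp in the pooled list, 4 had a pair of summits there, and 2 of the 5 genes of the IDR list did in that list. In the pooled list the spacing was 209 bp at Rpn11, 203 bp at Prosbeta2, 204 bp at Prosalpha4 and 200 bp at Rpn13. Over the whole pooled list 21.5% of summits had their nearest neighbour 190 to 220 bp away, 6462 of 30000, and none had one closer than 190 bp. In the IDR list 8.65% had their nearest neighbour at that spacing. Both percentages are shares of summits, not of genes. The share of all protein-coding genes with a pair of summits is not given here, so the counts of genes have no background.

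The summit of Rpn5 in replicate 4 stood at rank 2129 of its list, 213 bp upstream, whereas in the pooled list and in replicate 3 the only summit within 1000 bp of the TSS was 3 bp upstream.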
